A study of Mus musculus with 8 samples.

Results

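The genes described here are the 36 that carry glucose into the adipocyte and through glycolysis to lactate, together with the enzymes of the pentose phosphate pathway and of glycogen storage. They were chosen by their place in these pathways, with earlier results of these data known, and all 36 were found by symbol in the table of counts, which lists 43629 genes. Messenger RNA was sequenced from 3T3-L1 adipocytes, fat cells made in culture from a clonal line of mouse preadipocytes, in 4 groups of 2 libraries. All cells were differentiated with insulin, dexamethasone, isobutylmethylxanthine and rosiglitazone, and were treated at day 8 for 24 h. One group was left untreated, one received 2 µM A66, one received 0.5 mM palmitate conjugated to BSA, and one received 0.5 mM palmitate together with 2 µM A66.

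A66 is a selective inhibitor of p110α, a catalytic subunit of phosphoinositide 3-kinase that passes the signal of the insulin receptor to AKT. Palmitate is a saturated fatty acid. The comparisons ask how far inhibition of p110α alters the expression of these genes, with and without palmitate, and how far palmitate alters it, with and without the inhibitor. The labels name no vehicle or BSA for the untreated cells, so palmitate and its BSA carrier cannot be told apart here, and the study's methods give a lower dose of A66 than the labels, with DMSO as the control. Replicates are called biological repeats in the methods, and p-values measure only the spread between these libraries of 1 cell line.

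Adipocytes take up glucose through GLUT4, the product of Slc2a4, which insulin moves from internal vesicles to the cell surface, and through GLUT1, the product of Slc2a1, which is present at the surface without insulin. Hexokinase traps the sugar as glucose 6-phosphate, which has 3 main routes. Glycolysis turns it into pyruvate and lactate and supplies the glycerol 3-phosphate backbone of triglyceride. The pentose phosphate pathway takes electrons from it to make the NADPH used in fatty acid synthesis, and glycogen synthase stores it as glycogen.

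Library totals ranged from 42247091 to 57529803 counts, at which 3 counts correspond to between 0.0519 and 0.0706 counts per 1000000 (CPM, normalised to the library total and its TMM factor). This floor covers counting error only. All 10 adipocyte markers examined were tested, with Adipoq between 2049 and 2546 CPM, whereas the preadipocyte marker Dlk1 had 0 counts in all 8 libraries and the fibroblast gene Col1a1 was present at 576 to 773 CPM. No measurement here checks which cultures received A66, and of 7 tested transcripts listed as responsive to fatty acids none passed the test for palmitate alone, at 1.17% of all genes called, while 1 of 7 (Plin2) was higher with palmitate plus A66 than with A66, at 1.46% of all genes higher. Every direction below therefore follows the sample labels. In the text, a gene rose or fell where edgeR's quasi-likelihood test gave a Benjamini-Hochberg adjusted p under 0.05 over all genes tested, and log2 fold changes are given with their standard error (SE).

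To place the genes in order of abundance, CPM were divided by the joined length of all annotated exons of each gene. This length can exceed that of the transcript expressed, so the order of genes can depend on the annotation. In untreated cells the enzymes of the later steps of glycolysis led. Aldoa, the aldolase that splits fructose 1,6-bisphosphate, stood at 396 ± 2.19 CPM per kb (SD, n = 2), followed by Gapdh at 208 ± 2.37 CPM per kb. Pgam1 (phosphoglycerate mutase), Tpi1 (triosephosphate isomerase), Pgk1 (phosphoglycerate kinase) and Pkm (pyruvate kinase) followed at 131, 124, 117 and 114 CPM per kb. The libraries of Pgk1 and Pkm overlapped, so the order of these neighbours is not resolved.

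The isoforms of a step were not expressed equally. Slc2a4 stood at 44.8 CPM per kb and Slc2a1 at 17.0 CPM per kb. Among hexokinases, Hk2, the insulin-responsive form, stood at 28.5 CPM per kb and Hk1 at 5.89 CPM per kb. Of the phosphofructokinases, Pfkm (33.9 CPM per kb) exceeded Pfkl (15.7 CPM per kb) and Pfkp (11.8 CPM per kb). Before division by length Pfkp was highest, at 157.5 CPM, against 113.3 CPM for Pfkm and 104.6 CPM for Pfkl. The annotated exons of Pfkp cover 13401 bases and those of Pfkm 3340, so the order of these isoforms is not settled. Both lactate dehydrogenase subunits were abundant, Ldhb at 103 and Ldha at 85.0 CPM per kb. Slc16a1, which encodes the lactate carrier MCT1, stood at 15.1 CPM per kb, whereas Slc16a3, which encodes MCT4, had between 1 and 8 counts per library. Aldoc had 2 to 14 counts and the liver-type glycogen phosphorylase Pygl 2 to 6 counts per library, while the brain-type phosphorylase Pygb stood at 56.7 CPM per kb. Slc16a3 and Pygl did not pass the filter on low counts in any comparison, and Aldoc passed it only in the fit on all 8 libraries, so folds are not given for these 3 genes.

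**Figure D1:**
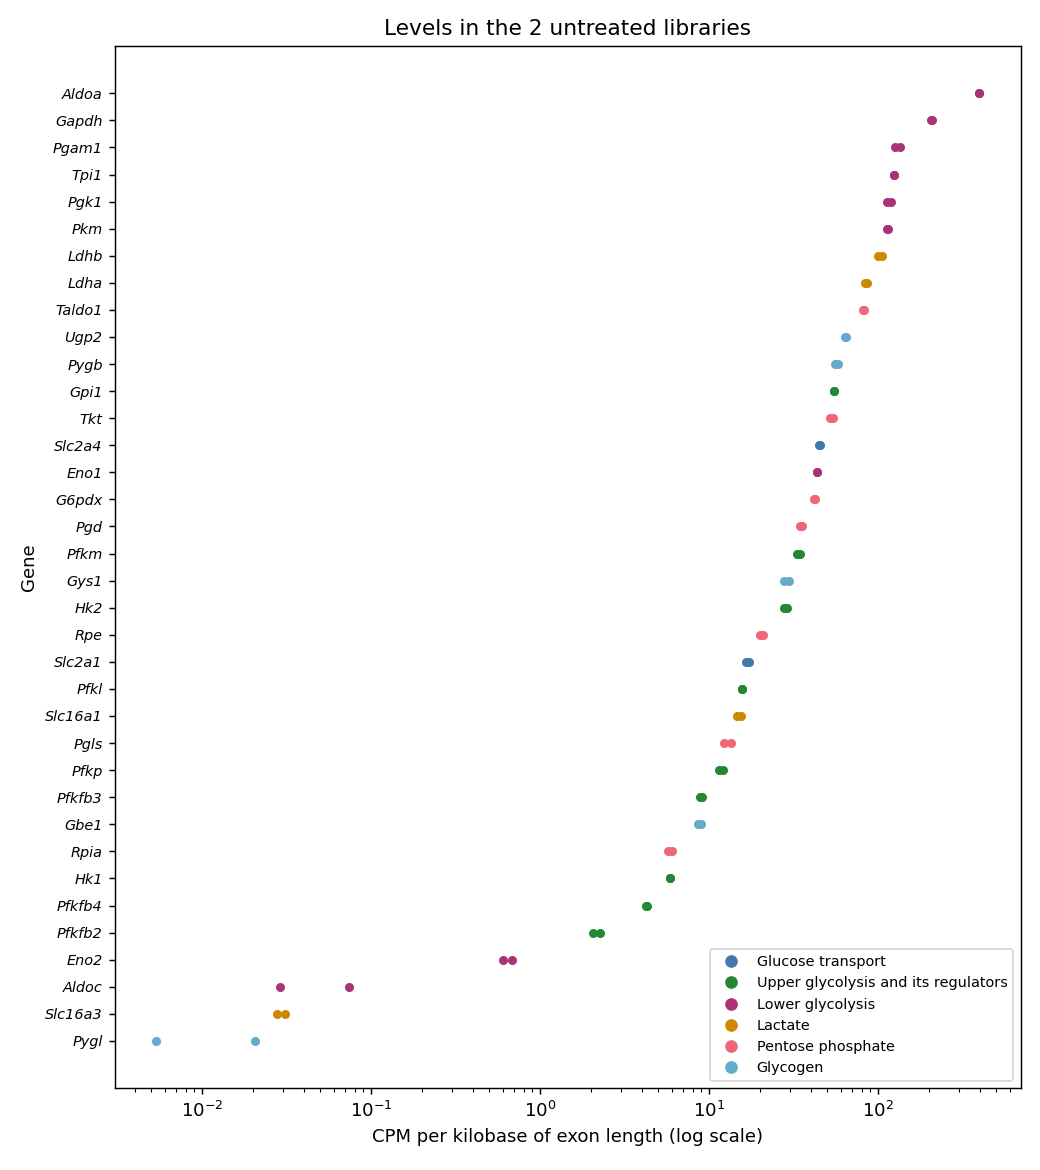
Level of each of the 36 genes in the 2 untreated libraries (points, one per library), in CPM per kilobase of exon length on a log axis, coloured by step of metabolism. Aldoa and Gapdh lead at 396 and 208 CPM per kb, and Aldoc, Slc16a3 and Pygl lie far below the other genes.

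In the comparison of A66 with untreated cells, 33 of the 36 genes were tested and 1 fell, G6pdx, the enzyme that commits glucose 6-phosphate to the pentose phosphate pathway. Among all 14158 genes tested, 1.84% passed in either direction, 1.07% were higher and 0.77% were lower. No transporter, no enzyme of glycolysis or lactate and no glycogen enzyme passed the test. The log2 fold changes of the 33 genes ran from -0.25 to 0.12, with a median of -0.05 against 0.00 over all genes. In 15 of the 33 genes both A66 libraries lay below both untreated libraries (45.5%, against 22.3% of all genes), and in 1 (Ugp2) both lay above (3.03%, against 20.3%).

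In cells that also received palmitate, A66 was associated with lower expression of 3 of 34 tested genes, Slc2a4, Aldoa and Pgam1. Of all 14587 genes, 2.81% passed in either direction, 0.973% were higher and 1.84% were lower. None of the 34 rose. Aldoc, which passed the filter on low counts through only some of the groups, is left out of the values that follow. The median log2 fold change of the other 33 genes was -0.06 against 0.00 over all genes, 26 values were negative and 7 positive, and 19 genes had both libraries of palmitate plus A66 below both palmitate libraries (57.6%, against 22.4% of all genes). The 3 with both libraries above (9.09%, against 21.9%) were Slc2a1, Eno2 and Pgd. The median of the 33 depended on the palmitate libraries. It was -0.04 without palmitate replicate 2 and -0.09 without palmitate replicate 1, against 0.00 over all genes in both fits. Without replicate 1 or 2 of palmitate plus A66 it was -0.07 and -0.06. Each of these fits leaves 1 library in a group, so genes that passed are not counted here.

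The values of all genes moved with base composition in the comparisons of palmitate plus A66 with palmitate and with A66. The genes described here were richer in GC than most. Their median exonic GC content was 52.9%, against 49.3% over all genes tested. From the lowest to the highest quartile of GC content, the median log2 fold change of all genes for palmitate plus A66 against palmitate ran from 0.03 to -0.03. Against A66 it ran from 0.02 to -0.02. For palmitate plus A66 against palmitate, a correction for GC content gave a median of -0.04 for the 33 genes against 0.02 over all genes. The split of all genes called in that comparison moved from 142 higher and 268 lower to 227 higher and 210 lower. Under this correction Slc2a4 and Pgam1 passed and Aldoa did not (adjusted p = 0.154).

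The comparisons of A66 without and with palmitate share no library. In 20 of 33 genes the log2 fold change was negative in both (60.6%, against 29.7% of all genes), and in 3 genes it was positive in both (against 28.9% of all genes). Both A66 libraries lay below both libraries without A66, in each comparison, in 10 genes, Slc2a4, Pfkp, Aldoa, Tpi1, Pgam1, Pkm, Ldha, G6pdx, Gys1 and Pygb (against 7.74% of all genes), and above in 0 genes (against 7.11% of all genes). As a share of the library, the 36 genes together took 0.722 and 0.727% in the untreated pair, 0.696 and 0.697% in the A66 pair, 0.736 and 0.740% in the palmitate pair, and 0.696 and 0.677% where both agents were given. The 4 libraries with A66 were thus the 4 lowest.

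Palmitate alone altered 1 of 34 tested genes, Pfkfb3, which fell. Of all 14587 genes, 1.17% passed in either direction, 0.631% were higher and 0.542% were lower. Without Aldoc, the median log2 fold change was 0.02, 20 were positive and 13 negative, and in 14 of 33 genes both palmitate libraries lay above both untreated libraries (42.4%, against 20.4% of all genes), among them Gapdh, Pgk1, Pgam1, Pkm, Hk1 and Gbe1. In 6 genes both lay below (18.2%, against 20.2%). In the presence of A66, palmitate was associated with a rise of 1 of 34 genes, Pgd (1.46% of all genes were higher), and a fall of 2, Slc2a4 and Pfkfb3 (1.27% were lower, and 2.73% passed in either direction). In 10 of 33 genes both libraries lay above (30.3%, against 23.2% of all genes) and in 9 both lay below (27.3%, against 23.4%).

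**Figure D2:**
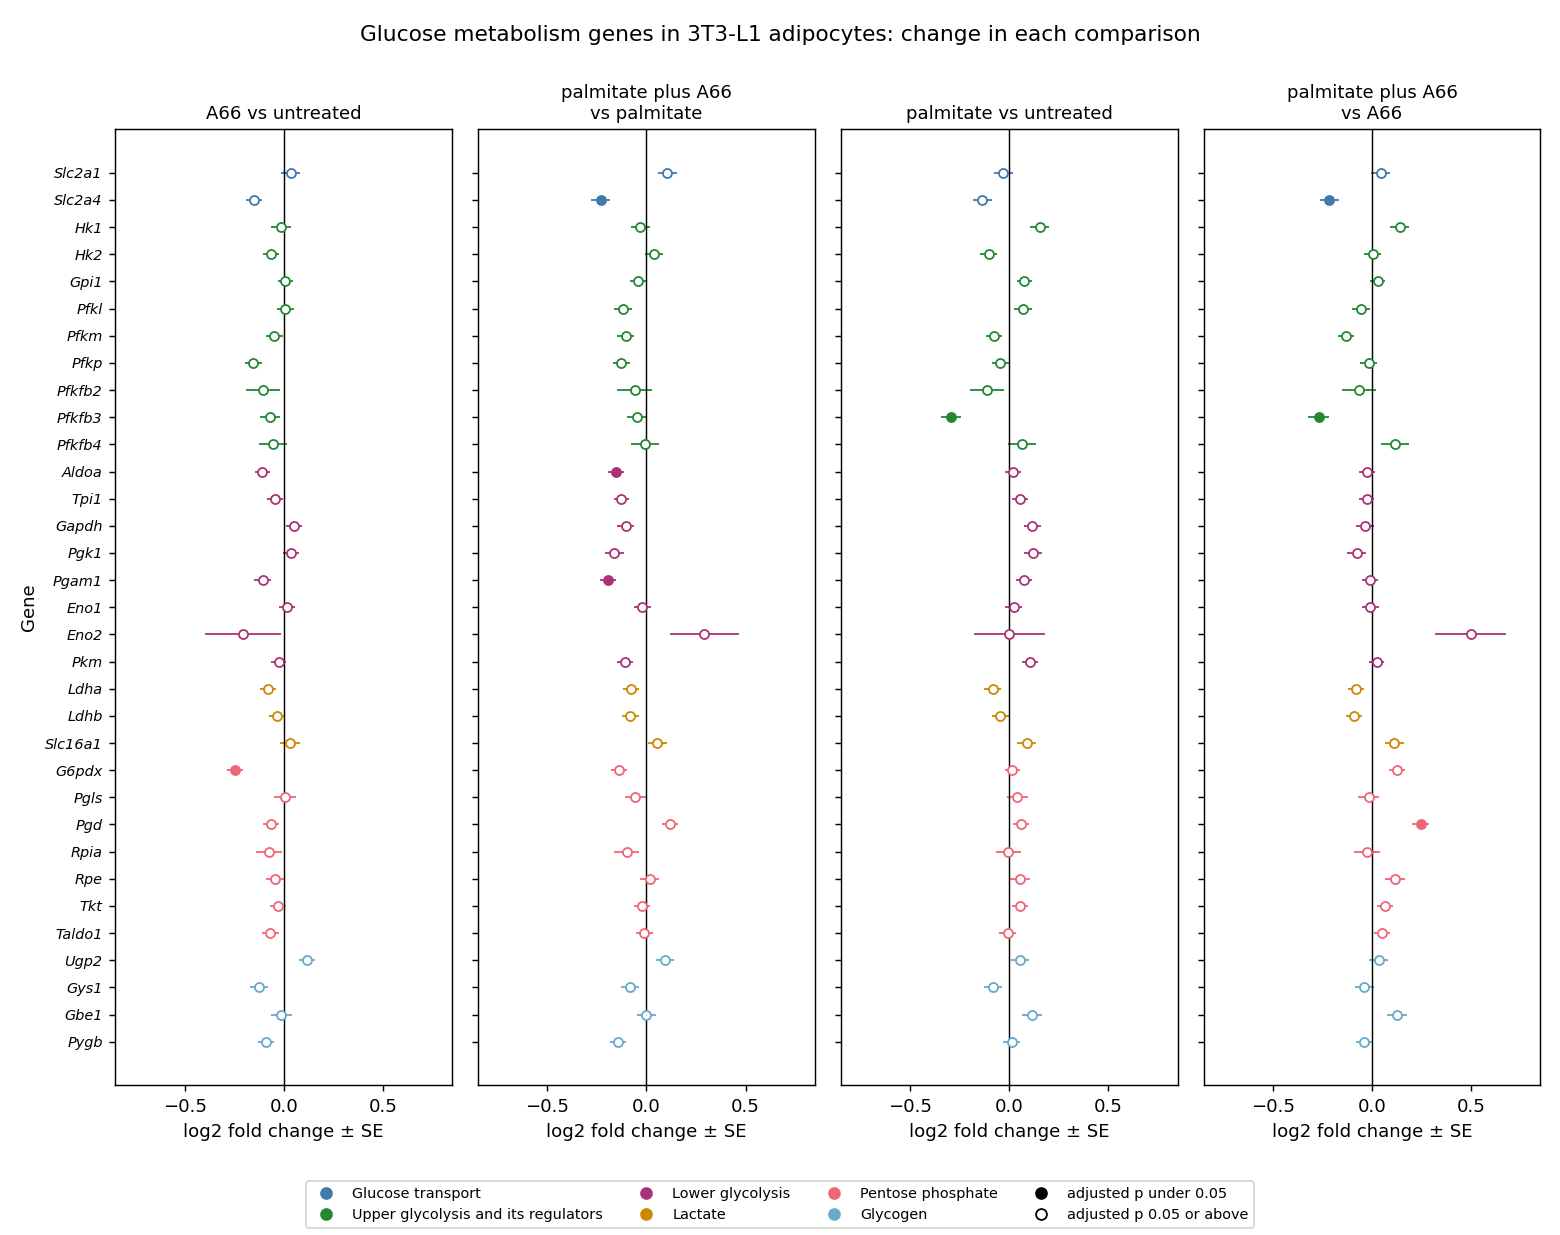
Log2 fold change with its SE (horizontal axis) of 33 genes in each of the 4 comparisons, with 2 libraries per group. Filled points passed edgeR's test, namely G6pdx in the first panel, Slc2a4, Aldoa and Pgam1 in the second, Pfkfb3 in the third, and Slc2a4, Pfkfb3 and Pgd in the fourth. Aldoc, Slc16a3 and Pygl are left out because of their low counts.

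Whether A66 acted differently in the presence of palmitate was tested with an interaction term. It passed for 1 of 14587 genes (0.00686%), which is none of the genes described here, while 1155 genes had an unadjusted p under 0.05 and DESeq2 called 21. Of the 34 genes tested, 0 passed in either tool, and the smallest adjusted p was that of Pgd (0.437), followed by Pgk1 (0.448). A gene that passed the test in one background and not in the other is therefore not shown to respond differently.

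Glucose transport was represented by Slc2a4 and Slc2a1. Slc2a4 (ENSMUSG00000018566, chromosome 11, 69942539 to 69948188, minus strand, GRCm38) was expressed at 157 and 155 CPM in untreated cells, 140.4 and 140.1 CPM with A66, 134 and 149.8 CPM with palmitate, and 118 and 124 CPM with both. The untreated libraries were the highest and the libraries with both agents the lowest, without overlap. Slc2a4 fell with A66 in the presence of palmitate (log2 fold change -0.23, SE 0.048, adjusted p = 0.00762) and with palmitate in the presence of A66 (-0.22, SE 0.048, adjusted p = 0.0115). For A66 alone the log2 fold change was -0.15 (adjusted p = 0.0659) and for palmitate alone -0.14 (adjusted p = 0.207), and the interaction was -0.08 (adjusted p = 0.832). Its call with A66 in palmitate did not hold without palmitate replicate 2 (adjusted p = 0.201) or without replicate 1 of palmitate plus A66 (adjusted p = 0.122). Its call with palmitate in A66 did not hold without either A66 library (adjusted p = 0.139 and 0.0786 without replicates 1 and 2) or without replicate 1 of palmitate plus A66 (adjusted p = 0.219).

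Some adipocyte markers fell in the comparisons in which Slc2a4 fell, but most did not go with it for A66 alone. Of the 10 markers, 6 fell with palmitate in the presence of A66 (1.27% of all genes were lower), including Retn (resistin), Plin1 (the lipid droplet coat protein perilipin 1) and Adipoq (adiponectin), by -0.32, -0.28 and -0.24 on the log2 scale (adjusted p = 2.95e-04, 0.00234 and 0.00327). With A66 in palmitate 2 of 10 fell (1.84% of all genes were lower), Retn (-0.32) and Cidec (-0.23), and with palmitate alone 1 of 10 (0.542% were lower), Lpl (-0.19). None passed with A66 alone (1.84% of all genes passed). There 7 of the 10 log2 fold changes were positive, with a median of 0.06, against -0.15 for Slc2a4. The summed level of the 10 markers ranged from 17880 to 17923 CPM in untreated cells, 17595 to 18291 CPM with A66, 15853 to 16805 CPM with palmitate and 15331 to 16402 CPM with both. Their part in the values of Slc2a4 was not tested, and fewer cells of a type and less RNA per cell cannot be told apart in bulk libraries.

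Slc2a1 (ENSMUSG00000028645, chromosome 4, 119108711 to 119137983, plus strand) was expressed at 60.8 and 58.2 CPM in untreated cells, 59.5 and 62.0 CPM with A66, 57.7 and 58.7 CPM with palmitate, and 62.1 and 63.2 CPM with both. Its 8 libraries lay within a narrow band, and none of the 4 comparisons passed (adjusted p = 0.844 for A66, 0.859 for palmitate, 0.296 for A66 in palmitate and 0.743 for palmitate in A66). The summed level of both transporters was 218 and 213 CPM in untreated cells, 199.9 and 202 CPM with A66, 192 and 208 CPM with palmitate, and 179.9 and 187 CPM with both agents.

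The upper part of glycolysis, 9 genes from hexokinase to phosphofructokinase and its regulators, held 1 gene that passed. Hk2 (ENSMUSG00000000628, chromosome 6, 82725025 to 82774454, minus strand) was expressed at 174 and 167 CPM in untreated cells, 164.5 and 160.3 CPM with A66, 164 and 153 CPM with palmitate, and 163 and 162 CPM with both. The highest values were those of untreated cells, but the 3 treated groups overlapped, and no comparison passed (adjusted p between 0.321 and 0.979).

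Pfkfb3 encodes the enzyme that makes fructose 2,6-bisphosphate, the strongest activator of phosphofructokinase. Pfkfb3 (ENSMUSG00000026773, chromosome 2, 11471433 to 11554077, minus strand) was expressed at 68.7 and 66.7 CPM in untreated cells and 66.7 and 61.9 CPM with A66. With palmitate its level was 53.1 and 57.4 CPM, and with both agents 53.3 and 53.5 CPM. All 4 libraries with palmitate lay below all 4 without it. The fall with palmitate measured -0.29 on the log2 scale (SE 0.051, adjusted p = 0.00277) and that in the presence of A66 -0.27 (SE 0.052, adjusted p = 0.00348), whereas A66 gave -0.07 alone (adjusted p = 0.617) and -0.05 in palmitate (adjusted p = 0.744). The first call did not hold without palmitate replicate 1 (adjusted p = 0.0895), nor the second without A66 replicate 1 (adjusted p = 0.156).

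The related enzymes of fructose 2,6-bisphosphate, Pfkfb2 and Pfkfb4, were much lower, at 13.5 to 16.4 CPM and 20.01 to 22.7 CPM over the 8 libraries, and passed in no comparison. Among the phosphofructokinases, Pfkp was at 162 and 153 CPM in untreated cells, 139 and 144 CPM with A66, 150.3 and 155 CPM with palmitate, and 137 and 142 CPM with both. The 4 libraries with A66 lay below the 4 without it, yet neither comparison passed (log2 fold change -0.15, adjusted p = 0.0728, and -0.13, adjusted p = 0.128). Pfkp is named here because of these values. Hk1 was at 50.41 and 50.04 CPM in untreated cells and at 49.0 to 50.2 CPM with A66, and at 54.6 to 56.0 CPM in the 4 libraries with palmitate, again without overlap and without passing the test (log2 fold change 0.15, adjusted p = 0.134, and 0.14, adjusted p = 0.132).

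The lower part of glycolysis, from aldolase to pyruvate kinase, held the most abundant transcripts and both glycolytic enzymes that fell with A66 in the presence of palmitate. Aldoa (ENSMUSG00000030695, chromosome 7, 126795234 to 126800751, minus strand) was expressed at 1149 and 1158 CPM in untreated cells, 1071 and 1066 CPM with A66, 1132 and 1204 CPM with palmitate, and 1055 and 1046 CPM with both. All 4 libraries with A66 lay below all 4 without it. The log2 fold change was -0.15 in palmitate (SE 0.041, adjusted p = 0.0465) and -0.11 without it (SE 0.036, adjusted p = 0.161). Palmitate gave 0.02 alone and -0.02 in the presence of A66 (adjusted p = 0.905 and 0.858). The call lay at the threshold: it did not hold in the fit restricted to the 4 libraries compared (adjusted p = 0.138), under 4 other settings, or without any one of 5 libraries (adjusted p between 0.0891 and 0.330).

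Pgam1 (ENSMUSG00000011752, chromosome 19, 41911923 to 41918660, plus strand) was expressed at 251 and 267 CPM in untreated cells, 238 and 243 CPM with A66, 273 and 273 CPM with palmitate, and 240.3 and 237 CPM with both. As for Aldoa, the libraries with A66 lay below those without it in either background. The fall with A66 in palmitate measured -0.20 on the log2 scale (SE 0.041, adjusted p = 0.00863), and the value without palmitate was -0.11 (SE 0.042, adjusted p = 0.252). Palmitate gave 0.08 alone and -0.01 in A66 (adjusted p = 0.486 and 0.947). The call did not hold without palmitate replicate 2 (adjusted p = 0.0582) or without replicate 1 or 2 of palmitate plus A66 (adjusted p = 0.0587 and 0.0917). A processed copy, Pgam1-ps2, had 50 to 116 counts per library, equal to 0.755% of those of Pgam1.

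Of the 10 preadipocyte and fibroblast markers, 9 were tested, and 1 of these, Col1a1, passed in any comparison. Col1a1, a collagen of fibroblasts, rose with palmitate (log2 fold change 0.25, adjusted p = 0.00331, 0.631% of all genes higher) and fell with A66 in palmitate (-0.33, adjusted p = 1.75e-04, 1.84% lower), and the other 8 passed in no comparison. With palmitate alone 7 of the 9 log2 fold changes were positive, with a median of 0.04. With A66 in palmitate 7 of the 9 were negative, with a median of -0.11. The 2 positive values were those of Ly6a (0.37, adjusted p = 0.0511) and Cd34 (0.22, adjusted p = 0.905). The summed level of the 10 markers was 4215 to 4456 CPM in untreated cells, 4286 to 4392 CPM with A66, 4371 to 4693 CPM with palmitate and 3893 to 4144 CPM with both, with Dlk1 at 0. Their part in the values of Aldoa and Pgam1 was not tested.

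**Figure D3:**
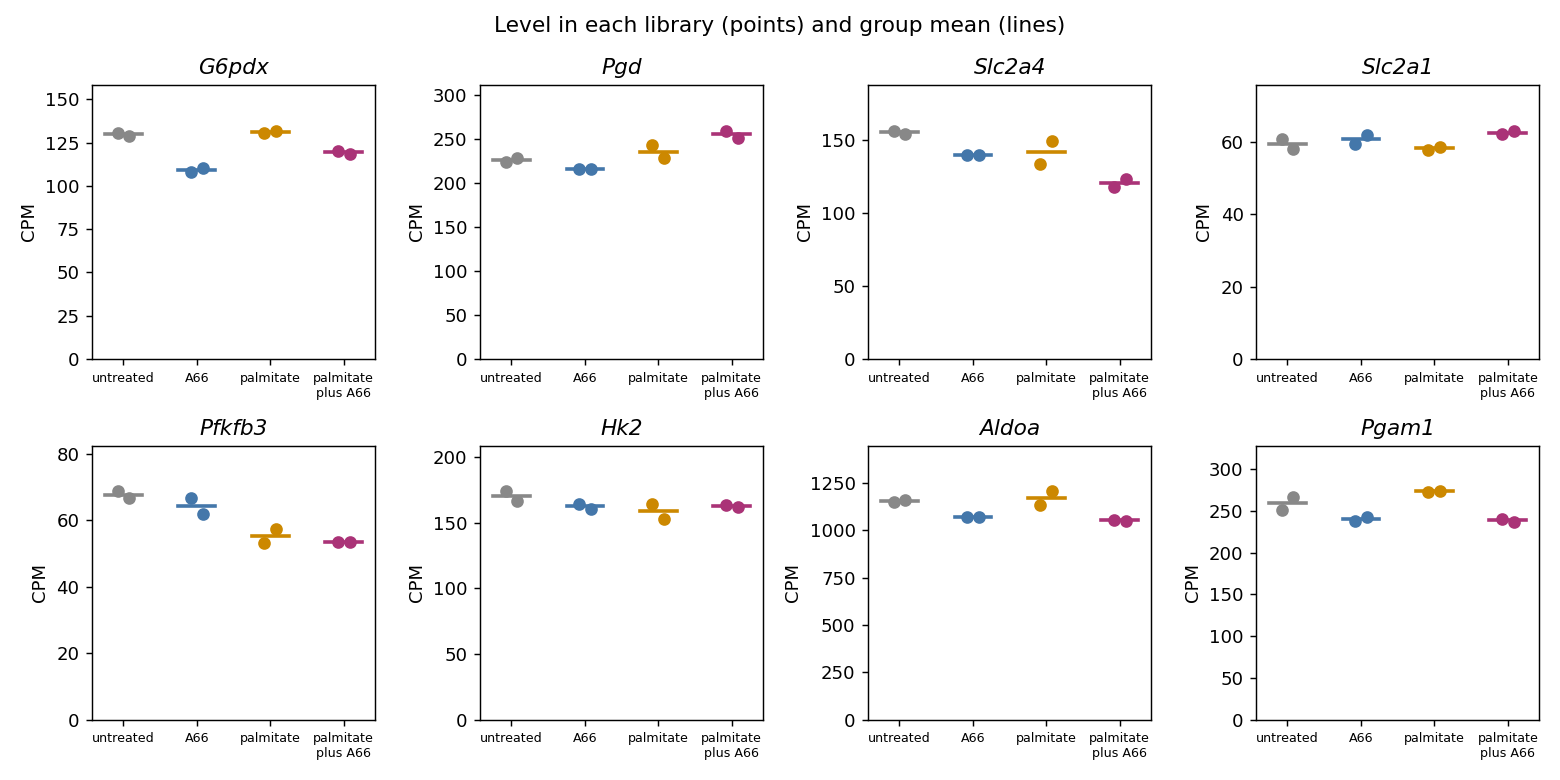
Level in CPM of 8 genes in each library (points) with the group mean (line), vertical axes starting at 0. The libraries with A66 lie below the others for Aldoa and Pgam1, the libraries with palmitate lie lowest for Pfkfb3, and Slc2a1 and Hk2 passed in no comparison.

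Of the other genes of lower glycolysis, Tpi1, Gapdh, Pgk1 and Pkm had lower values with palmitate plus A66 than with palmitate in both libraries, and none passed. Their log2 fold changes were -0.13, -0.11, -0.16 and -0.11 (adjusted p = 0.0906, 0.246, 0.0619 and 0.169), values given here because the groups did not overlap. Pgk1 passed with library totals (adjusted p = 0.0389), with DESeq2 (0.0342), without the filter on low counts (0.00557) and without untreated replicate 1 or 2 or replicate 1 of palmitate plus A66 (0.0423, 0.0436 and 0.0262), and Tpi1 passed with library totals (0.0494) and DESeq2 (0.0187). Pgk1 stood at 254 and 269 CPM in untreated cells, 269 and 268 CPM with A66, 288 and 281 CPM with palmitate, and 267 and 241 CPM with both. Its A66 libraries lay within the untreated range, and its interaction did not pass. Eno1, the main enolase, was at 227 to 243 CPM in all 8 libraries, although a near-identical copy, Eno1b, held 19.7% as many counts and the assignment of reads between them is uncertain. Eno2 stood at 2.24 to 4.10 CPM and passed in no comparison.

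Among the lactate genes, Ldha was at 276 and 287 CPM in untreated cells, 269.5 and 262 CPM with A66, 264 and 267 CPM with palmitate and 246 and 256 CPM with both. Untreated cells were highest and cells with both agents lowest, and the log2 fold change was -0.08 in each of the 4 comparisons, with adjusted p between 0.384 and 0.421. Ldhb ranged from 146 to 165 CPM and the carrier Slc16a1 from 64.6 to 75.0 CPM, and neither passed. The carrier's partner protein basigin, encoded by Bsg, which brings MCT1 to the membrane, fell with A66 in palmitate (log2 fold change -0.28, SE 0.043, adjusted p = 5.39e-04). Bsg stood at 302 and 318 CPM in untreated cells, 309.7 and 324 CPM with A66, 337 and 355 CPM with palmitate, and 287 and 282 CPM with both. The palmitate libraries were the highest and those with both agents the lowest. The interaction for Bsg measured -0.31 (adjusted p = 0.122) and passed with DESeq2 (adjusted p = 2.46e-04).

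In the pentose phosphate pathway, each of the 2 enzymes that make NADPH passed in 1 comparison. G6pdx (ENSMUSG00000031400, X chromosome, 74409483 to 74429194, minus strand) was expressed at 131 and 129 CPM in untreated cells, 108 and 110.4 CPM with A66, 131 and 132 CPM with palmitate, and 120.1 and 119 CPM with both. The A66 libraries were the lowest, those with both agents were intermediate and the remaining 4 coincided. The log2 fold change with A66 was -0.25 (SE 0.042, adjusted p = 0.00167), and in palmitate -0.14 (SE 0.040, adjusted p = 0.0684, and 0.0352 with library totals and 0.0483 with DESeq2, where it passed). Palmitate gave 0.02 alone (adjusted p = 0.918) and 0.13 in A66 (adjusted p = 0.0982, and 0.0495 with the length correction, 0.0391 with the GC correction and 0.0482 with the block and GC correction, where it passed), and the interaction was 0.11 (adjusted p = 0.651). The call held in 13 of 14 alternative settings, the exception being the fit without A66 replicate 1 (adjusted p = 0.0504). The exons of G6pdx share 418 bases, 13.6% of their length, with those of Ikbkg on the opposite strand, which had 7708 to 10790 counts per library and a log2 fold change of 0.04 with A66 (adjusted p = 0.737). With A66 in palmitate Ikbkg rose (0.16, adjusted p = 0.0298). Whether the authors' counts separate the strands is not given in the sources used here.

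Pgd, the enzyme of the second NADPH-forming step, rose with palmitate in the presence of A66. Pgd (ENSMUSG00000028961, chromosome 4, 149149991 to 149166771, minus strand) was expressed at 224 and 228 CPM in untreated cells, 216 and 216 CPM with A66, 243 and 228 CPM with palmitate, and 259.7 and 252 CPM with both. The libraries with both agents were the highest and those with A66 alone the lowest. The log2 fold change between these groups was 0.25 (SE 0.042, adjusted p = 9.9e-04). Palmitate alone gave 0.06 (adjusted p = 0.628), A66 alone -0.07 (adjusted p = 0.526) and A66 in palmitate 0.12 (adjusted p = 0.152). Its libraries lay apart in opposite directions in the A66 comparisons without and with palmitate, a pattern whose share over all genes was not counted. Its interaction, 0.19 (SE 0.059), did not pass.

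The remaining 5 pentose phosphate genes, Pgls, Rpia, Rpe, Tkt and Taldo1, had log2 fold changes between -0.10 and 0.11 in all 4 comparisons and none passed. Tkt (transketolase), the most highly counted of them, was at 376 to 411 CPM over the 8 libraries. Exons of Pgls share 776 bases with Fam129c on the same strand and those of Rpe 558 bases with Kansl1l on the opposite strand, so their counts are less certain. In the glycogen group, the 4 tested genes Ugp2 (which makes UDP-glucose), Gys1 (glycogen synthase), Gbe1 (branching enzyme) and Pygb (glycogen phosphorylase) passed in no comparison. Ugp2 stood at 195 and 198 CPM in untreated cells and 215 and 211 CPM with A66, the only tested gene above untreated cells in both A66 libraries (log2 fold change 0.12, adjusted p = 0.164). Gys1 and Pygb lay below their controls in both A66 comparisons, at -0.12 and -0.08 on the log2 scale for Gys1 and -0.09 and -0.14 for Pygb, the smallest adjusted p being 0.0679 for Pygb in palmitate, which passed with library totals (0.0292), with DESeq2 (0.0257) and without the filter on low counts (0.0226).

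The levels were also summed over each of the 6 steps. Upper glycolysis and its regulators summed to 1061 and 1046 CPM in untreated cells, 1018 and 1024 CPM with A66, 1038 and 1058 CPM with palmitate, and 1010.0 and 1007 CPM with both, so that all 4 libraries with A66 lay below the 4 without it. The lactate genes summed to 506 and 513 CPM in untreated cells, 496 and 486 CPM with A66, 491 and 494 CPM with palmitate, and 468 and 478 CPM with both, highest without treatment and lowest with both agents. Lower glycolysis summed to 3666 and 3700 CPM in untreated cells, 3560 and 3629 CPM with A66, 3838 and 3895 CPM with palmitate, and 3610 and 3473 CPM with both, so that the palmitate libraries were highest and both A66 groups lay below untreated cells. The pentose phosphate sum was 1068 and 1066 CPM in untreated cells, 1026 and 1005 CPM with A66, 1099.9 and 1092 CPM with palmitate, and 1098 and 1089 CPM with both. There the A66 group alone was low, and the groups with palmitate coincided. The glycogen sums were 663 and 645 CPM in untreated cells, 654 and 629 CPM with A66, 659 and 660.2 CPM with palmitate, and 623 and 658 CPM with both, so that the palmitate libraries lay above those of both A66 groups and within the untreated range.

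**Figure D4:**
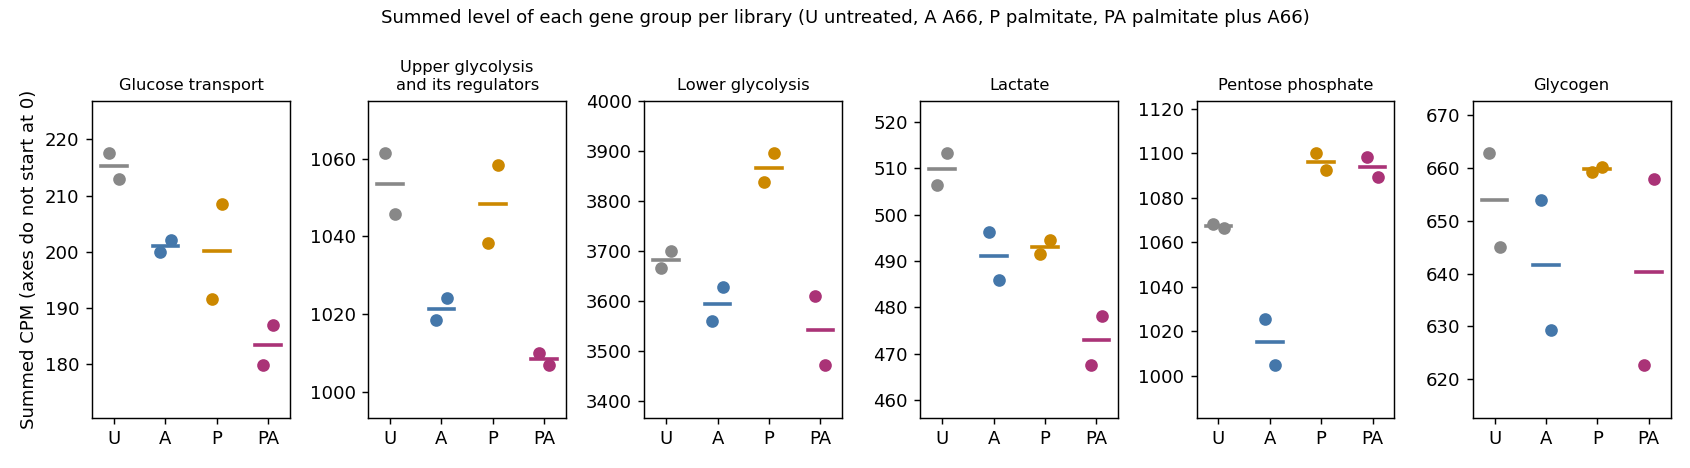
Summed level in CPM of the genes of each step in each library (points) with the group mean (line), vertical axes not starting at 0. Lower glycolysis was highest with palmitate (3838 and 3895 CPM), the pentose phosphate sum was lowest with A66 alone (1026 and 1005 CPM), and the glycogen sums with palmitate (659 and 660.2 CPM) lay above those of both A66 groups.

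The other genes of these pathways were examined as a further list of 54 isoforms, glycogen regulators and partner proteins, of which 35 were tested. With A66 0 passed (1.84% of all genes did) and with palmitate alone 1 rose (1.17% passed in either direction). With A66 in palmitate 1 fell (2.81% passed), Bsg, described above, and with palmitate in A66 1 rose and 2 fell (2.73% passed).

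Stbd1, which ties glycogen to membranes, rose with palmitate (log2 fold change 0.34, SE 0.071, adjusted p = 0.014) and with palmitate in A66 (0.43, SE 0.071, adjusted p = 6.12e-04). Its level was 37.9 and 40.9 CPM in untreated cells, 37.9 and 42.7 CPM with A66, 53.3 and 46.6 CPM with palmitate, and 57.8 and 51.0 CPM with both, so the libraries with palmitate lay above those without. The first call did not hold without palmitate replicate 1 (adjusted p = 0.298) or untreated replicate 1 (adjusted p = 0.164). In the presence of A66, palmitate was also associated with a fall of Phka2, a regulatory subunit of phosphorylase kinase (-0.21, adjusted p = 0.0149), and of Ppp1r3c, which directs protein phosphatase 1 to glycogen (-0.17, adjusted p = 0.0441). Neither held without replicate 1 of palmitate plus A66 (adjusted p = 0.151 and 0.511).

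Of 14 genes that move GLUT4 vesicles, 1 passed in any comparison, with palmitate in A66 (1.27% of all genes were lower and 2.73% passed in either direction). Tbc1d4, which encodes AS160, the AKT substrate that holds GLUT4 inside the cell, fell with palmitate in A66 (log2 fold change -0.23, SE 0.051, adjusted p = 0.0115). Its level was 90.7 and 87.1 CPM in untreated cells, 88.2 and 84.0 CPM with A66, 74.4 and 81.4 CPM with palmitate, and 71.0 and 76.1 CPM with both. The libraries with palmitate lay below those without, and the value for palmitate alone was -0.19 (adjusted p = 0.0698). The call did not hold without A66 replicate 1 (adjusted p = 0.271) or replicate 1 of palmitate plus A66 (adjusted p = 0.25).

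Of 9 genes of glucose-responsive transcription, namely regulators and the arrestins Txnip and Arrdc4 that they control, 2 fell with A66 in palmitate (1.84% of all genes were lower and 2.81% passed in either direction). These were Arrdc4, an arrestin controlled by the glucose-sensing factors MondoA and ChREBP (log2 fold change -0.28, adjusted p = 0.0139), and Klf15, a factor known to activate Slc2a4 (-0.19, adjusted p = 0.0278). Klf15 also fell with palmitate in A66 (-0.26, adjusted p = 0.00234). Klf15 stood at 55.3 and 57.1 CPM in untreated cells, 55.6 and 57.2 CPM with A66, 53.3 and 54.2 CPM with palmitate, and 47.1 and 46.9 CPM with both. The libraries with both agents were the lowest, as for Slc2a4. With A66 alone the log2 fold change was 0.006 for Klf15 (adjusted p = 0.978), against -0.15 for Slc2a4. Its part in the values of Slc2a4 was not tested. Txnip, Hif1a and Myc passed in no comparison, and neither did Mlxipl (ChREBP). The log2 fold change of Mlxipl was -0.47 with A66 (adjusted p = 0.0588) and -0.55 with palmitate (adjusted p = 0.0751). It was 0.15 with A66 in palmitate and 0.08 with palmitate in A66 (adjusted p = 0.705 and 0.881).

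Sequence upstream of the genes that passed was read from RefSeq (GRCm38.p6) to show what lies before their starts. Of the 36 genes, 35 matched 51 promoter entries, and Slc2a4 had none. Each line gives 250 bases up to the base before the start, 5′ to 3′ on the gene's strand, with matches of the motifs below in capitals. Where a gene has several starts, the entry with the most matches is shown, and of equals the one farthest upstream. The windows are chrX:74428881-74429130 (minus) for G6pdx, chr4:149166706-149166955 (minus) for Pgd, chr19:41911621-41911870 (plus) for Pgam1, chr7:126799255-126799504 (minus) for Aldoa and chr2:11502091-11502340 (minus) for Pfkfb3.
G6pdx: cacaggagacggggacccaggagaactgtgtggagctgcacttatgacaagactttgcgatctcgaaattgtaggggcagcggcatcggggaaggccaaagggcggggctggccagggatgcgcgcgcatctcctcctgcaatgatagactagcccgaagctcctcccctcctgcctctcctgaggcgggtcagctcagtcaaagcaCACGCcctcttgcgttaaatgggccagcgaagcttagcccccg
Pgd: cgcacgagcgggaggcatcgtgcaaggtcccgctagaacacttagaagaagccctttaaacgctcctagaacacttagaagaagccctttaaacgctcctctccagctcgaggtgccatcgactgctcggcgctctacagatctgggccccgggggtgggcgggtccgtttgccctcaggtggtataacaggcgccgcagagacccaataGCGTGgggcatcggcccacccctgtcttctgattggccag
Pgam1: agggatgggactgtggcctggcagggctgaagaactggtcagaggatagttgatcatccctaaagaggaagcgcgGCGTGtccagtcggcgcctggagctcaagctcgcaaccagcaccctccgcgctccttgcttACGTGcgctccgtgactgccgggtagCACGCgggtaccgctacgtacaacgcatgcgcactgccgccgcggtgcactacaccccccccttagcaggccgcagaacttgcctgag
Aldoa: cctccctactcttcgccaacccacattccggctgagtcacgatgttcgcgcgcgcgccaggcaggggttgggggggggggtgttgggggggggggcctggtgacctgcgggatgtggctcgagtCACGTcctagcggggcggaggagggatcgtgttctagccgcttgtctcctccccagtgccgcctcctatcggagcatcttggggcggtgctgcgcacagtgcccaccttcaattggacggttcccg
Pfkfb3: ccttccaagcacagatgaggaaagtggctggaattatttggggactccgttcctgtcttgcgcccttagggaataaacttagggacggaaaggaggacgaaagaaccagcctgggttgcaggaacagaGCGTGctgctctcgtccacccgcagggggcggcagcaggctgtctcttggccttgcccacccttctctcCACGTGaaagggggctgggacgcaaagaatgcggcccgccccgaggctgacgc

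The motifs searched, on both strands, were ACGTG and GCGTG, the core letters of the hypoxia response element, CACGTG, the E-box core, and TGTTTAC, the forkhead core. CACGTG contains ACGTG, so each match of the former is also one of the latter. Of the 51 entries, 45.1% held ACGTG, against 19.6% of 32851 promoter windows of the same length, 58.8% held GCGTG, against 32.4%, 9.8% held CACGTG, against 7.15%, and 1.96% held TGTTTAC, against 3.65%. Entries of one gene overlap and are not independent. In the lines printed, Pgam1 held one of each core of the hypoxia element and a further GCGTG on the other strand, and Pfkfb3 held CACGTG and GCGTG. These matches describe the letters of the windows only.

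A further list of 16 targets of hypoxia-inducible factor outside glucose metabolism was examined, of which 15 were tested. With palmitate 2 of 15 passed (1.17% of all genes did), of which P4ha1 (a collagen prolyl hydroxylase) rose and Vegfa fell (log2 fold change 0.20 and -0.19, adjusted p = 0.0294 and 0.0123). With A66 in palmitate 3 of 15 passed (2.81% of all genes did), of which Adm (adrenomedullin) and Ndrg1 rose (0.37 and 0.40, adjusted p = 0.0174 and 0.041) and Ddit4, an inhibitor of mTORC1, fell (-0.44, adjusted p = 0.00316). None passed with A66 alone or with palmitate in A66. The list therefore held members in both directions in each comparison in which any passed.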

How the data were processed

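Counts per Ensembl gene were deposited by the authors, 1 column per library and not normalized. They came from stranded poly(A) libraries aligned to GRCm38 with TopHat 2.0.11 and counted with HTSeq, whose version, annotation and strand setting are not given in the sources used here. The same table holds the authors' DESeq2 comparison (fold changes and p-values), which was not used. Symbols, coordinates, exon length and GC content came from GENCODE M21 (GRCm38), matched for 42462 of 43629 genes.

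Tests were run with edgeR 4.0.16 under R 4.3.3 (TMM, filterByExpr with a minimum count of 10, quasi-likelihood test, two-sided, Benjamini-Hochberg adjustment over all genes tested, threshold 0.05). A66 was compared with untreated cells in their 4 libraries, and the other comparisons and the interaction were fitted on all 8. The tests were tried on simulated data first. Alternatives were RLE scaling, library totals, DESeq2 1.42.0, other filters, a replicate block, GC and length corrections, other sets of libraries and leaving out each library. Leaving out a library of a compared group leaves 1 library there, and the other groups then supply the spread. Calls that held or did not hold in such fits are therefore only a rough guide. The chi-square between replicates averaged 6.15 to 8.99 over genes, above counting noise in every group. The members and lists were chosen with earlier results of these data known. Values per library are given for each member that passed in any comparison and for Slc2a1, Slc2a4 and Hk2, and for other lists up to 3 genes that passed per comparison are named. Other genes named were singled out after their values were seen. One further gene of these pathways is not reported here.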

Additional observations from a re-analysis of the deposited data

How the results depend on the processing

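Without the filter on low counts 459 genes passed for A66 (261 with it), 396 for palmitate (171), 652 for A66 in palmitate (410), 664 for palmitate in A66 (398) and 91 for the interaction (1), and in the fit on the 4 libraries compared 689 passed for palmitate in A66. The interaction passed for 2 genes with library totals, 21 with DESeq2 and 3 with the replicate block. Of the 36 genes described, 3 passed for A66 with library totals (280 of all genes) or without the filter (G6pdx, Pfkp and Slc2a4). For palmitate in A66, G6pdx joined the 3 genes with the length or GC correction (472 and 462 of all genes). For A66 in palmitate 7 passed with library totals or DESeq2 (G6pdx, Pgk1, Pygb and Tpi1 beside Aldoa, Pgam1 and Slc2a4), where 457 and 436 of all genes passed. Without the filter 5 passed (Pgk1 and Pygb beside these 3).

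When single libraries were left out, the genes that passed ranged from 98 to 635 for A66, 71 to 245 for palmitate, 147 to 494 for A66 in palmitate, 107 to 502 for palmitate in A66 and 0 to 10 for the interaction. Of the 36 genes, the ranges were 0 to 4, 0 to 2, 0 to 4, 1 to 3 and 0 to 0.

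The split of genes called for palmitate in A66 moved from 213 higher and 185 lower to 308 and 154 with the GC correction, 313 and 159 with the length correction and 180 and 266 with library totals, for palmitate from 92 and 79 to 83 and 105 with library totals, 104 and 64 with the GC correction and 102 and 62 with the length correction, for A66 in palmitate to 266 and 229 with the length correction and 107 and 350 with library totals, and for A66 from 152 and 109 to 208 and 101 with the GC correction, 235 and 119 with the length correction and 126 and 154 with library totals. The cause was not tested.

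Same-numbered replicates did not deviate together (correlation -0.05 to 0.08 over 14587 genes, 6 pairs of groups). With the replicate block 282, 195, 448 and 438 genes passed in the 4 comparisons, and 1, 1, 3 and 3 of the 36.

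Signs were followed for genes that passed in any comparison, for Slc2a1 and Hk2, and for some named values, and not for the other genes. Among those followed, signs changed only for values that passed in neither setting. The median of the 33 genes for palmitate in A66 was -0.01, and 0.01 with the GC correction. Over the fits that left out 1 library, Aldoa ran from -0.024 to 0.062 for palmitate, Pfkfb3 from -0.10 to 0.0100 and Hk2 from -0.010 to 0.089 for A66 in palmitate, and Pgam1 from -0.027 to 0.0065 and Hk2 from -0.015 to 0.023 for palmitate in A66. For palmitate in A66, Pgam1 was also at 0.0098 with the length correction and 0.012 with the GC correction, with or without the block, Aldoa at 0.0052 with the GC correction, with or without the block, and Hk2 at -0.012 with library totals. With 2 libraries per group, a missed threshold does not show that groups were alike, and Aldoc, Slc16a3 and Pygl were too low to compare.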
